A study of Mus musculus with 24 samples.

Results

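Gene expression of insulin-like growth factor 1 (IGF1) signaling and of the IGF binding proteins was examined in optically exercised C2C12 muscle. The set held 10 genes of the 56941 in the deposited tables and was chosen by gene name. It held the ligand Igf1, the receptors Igf1r and Insr, and the receptor adaptors Irs1 and Irs2. The binding proteins were Igfbp3, Igfbp4, Igfbp5, Igfbp6, and Igfbp7. This set and the pathway list below were chosen with earlier results of these data known. Their counts and medians beside those of all genes are therefore descriptions and not tests. Of the 10, 9 passed the filter on low counts and were tested, and Igf1 did not pass.

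The data were bulk RNA-seq of 24 muscle tissues grown from C2C12, an established mouse myoblast line, of genotype ChR2::tdTomato, which carries a blue-light-gated ion channel tagged with a red fluorescent protein. The 4 conditions had 6 biological replicates each: an unstimulated control, and daily light for 30 min at 1, 4, or 10 Hz. All tissues were monolayers on fibrin gels from the same engineered cells, and every condition, the control included, was reported by the study to twitch spontaneously. All tissues also received 50 ng/ml IGF-1 protein with 10% horse serum in the differentiation medium, so the receptor pathway was supplied with ligand from outside in every group.

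IGF1 binds the IGF1 receptor, a tyrosine kinase closely related to the insulin receptor, and both receptors phosphorylate the adaptors IRS1 and IRS2 to reach phosphoinositide 3-kinase (PI3K), AKT, and mTOR. In skeletal muscle this route is known for driving protein synthesis and growth and for holding FoxO transcription factors, which drive breakdown, out of the nucleus. The secreted IGF binding proteins hold most IGF outside the cell, extend its life, and hand it over or keep it from the receptor. IGFBP5 is the binding protein best known from differentiating myoblasts.

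The promoters of Igfbp4, Igfbp5, and Irs2 are shown because the first pair moved together with stimulation and Irs2 was lower at 4 Hz than in every other condition. Each sequence is the 250 bases before the annotated start in GRCm39, written 5′ to 3′ on the gene's own strand, and capitals mark a motif match. Igfbp4 (plus strand) is chr11:98931814-98932063, Igfbp5 (minus strand) is chr1:72914044-72914293, and Irs2 (minus strand) is chr8:11059500-11059749.
Igfbp4: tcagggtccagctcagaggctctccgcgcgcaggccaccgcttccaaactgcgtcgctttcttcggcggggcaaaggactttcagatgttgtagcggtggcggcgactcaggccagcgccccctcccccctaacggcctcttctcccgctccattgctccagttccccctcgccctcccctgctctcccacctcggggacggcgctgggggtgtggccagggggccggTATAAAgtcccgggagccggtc
Igfbp5: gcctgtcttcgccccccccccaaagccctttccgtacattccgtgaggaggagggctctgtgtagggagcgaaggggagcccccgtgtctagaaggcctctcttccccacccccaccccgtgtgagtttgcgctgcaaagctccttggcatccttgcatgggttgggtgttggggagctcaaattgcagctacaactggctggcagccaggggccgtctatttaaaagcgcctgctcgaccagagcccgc
Irs2: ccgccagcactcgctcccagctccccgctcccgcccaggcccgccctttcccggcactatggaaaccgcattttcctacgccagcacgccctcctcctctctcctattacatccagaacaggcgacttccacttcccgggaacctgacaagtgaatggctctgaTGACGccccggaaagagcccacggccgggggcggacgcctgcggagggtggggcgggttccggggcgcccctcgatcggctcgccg
The capitals mark a TATA box (TATAAA) in Igfbp4 and a cAMP response element half-site (TGACG) in Irs2. On both strands, TATAAA stood in 7.82% and TGACG in 23.3% of the 13292 windows of the same length before tested genes. In the set, TATAAA stood in 2 of the 10 windows (Igfbp4 and Igfbp6) and TGACG in 1 of the 10 (Irs2). The letters of a myogenic E-box (CAGCTG, 11.4% of windows), an AP-1 site (TGANTCA, 5.12%), and a FoxO site (GTAAACA, 2.31%) were in none of the 10 windows of the set. TGACG and TGANTCA both start with the letters TGA. These matches describe letters in a window and not bound sites.

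Library totals ran from 4.09 to 15.2 M counts (median 7.48 M), with the lowest mean in control (5.67 M). The tissue label was checked against markers, and summed transcripts per M (TPM) of 7 myofiber genes ranged from 7804 to 17423. Of the fibroblast markers, Lum had at most 1 count in any library, while Dcn (16.2 to 55.1 TPM) and Pdgfra (1.48 to 9.56 TPM) were measured in every library. Of the macrophage markers, Ptprc and Adgre1 had at most 1 count and Csf1r had up to 33. Endothelial, adipocyte, and neuronal marker sums stayed at or below 1.20 TPM. The labels state that low-input samples were ribodepleted, without naming them. Non-polyadenylated small RNAs made up 98.8 to 169 counts per M counts (CPM) in control libraries, 15.6 to 70.2 at 1 Hz, 19.5 to 51.1 at 4 Hz, and 38.5 to 274 at 10 Hz. Every control value lay above every 1 and 4 Hz value, so the share cannot be told apart from stimulation at these frequencies, and calls from a fit with it as a covariate are given beside the results. In bulk RNA, fewer cells of a type and less RNA per cell cannot be told apart.

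Levels per gene are given below as CPM of TMM-scaled libraries, which compare 1 gene between libraries. Levels between genes are ranked only in TPM, which is per transcript length. Log2 fold changes and adjusted p-values are from edgeR's quasi-likelihood fit of all 24 libraries, corrected over 13318 genes, and a gene was called when its adjusted p was below 0.05 and its log2 fold change was beyond 0.5 in either direction. The 3 comparisons with control share the same control libraries.

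At 1 Hz, the receptor gene Igf1r and the binding protein genes Igfbp4 and Igfbp5 rose, and the adaptor gene Irs1 fell. With the small RNA share in the fit, edgeR called 0 of the 9 genes (5 at an unadjusted p below 0.05, and 0 called by limma on log2 CPM). Of the 9 genes tested, 3 were called higher, against 9.34% of all genes tested, and 1 was called lower, against 8.99%. By the adjusted p alone 7 passed (35.4% of all genes), and their groups did not overlap for 3 genes in the upward direction (7.22%) and for 1 in the downward direction (5.86%). The median log2 fold change of the 9 genes was 0.44, with -0.01 over all genes.

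At 4 Hz, Igfbp4, Igfbp5, and Igfbp6 rose, and both adaptor genes, Irs1 and Irs2, fell. With the small RNA share in the fit, Irs2 was the only 1 of the 9 that edgeR called. The 3 genes called higher stood against 10.5% of all genes tested and the 2 called lower against 9.61%. By the adjusted p alone 7 passed (39.4% of all genes). In CPM, the libraries did not overlap for 3 genes in the upward direction (Igf1r, Igfbp4, and Igfbp5, 8.68% of all genes). In the downward direction they did not overlap for 2 (Irs1 and Irs2, 7.93%). Igf1r was not called, and Igfbp6 overlapped control. The median was 0.34, with -0.01 over all genes.

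At 10 Hz, 0 of the 9 genes were called by edgeR in either direction, against 1.24% of all genes called higher and 0.623% called lower. At an unadjusted p below 0.05 edgeR gave 3 of the 9, DESeq2 called 0, and limma on log2(TPM + 1) called 0. By the adjusted p alone only Irs1 passed, where 4.89% of all genes did. No gene of the set lay wholly above the control libraries (1.28% of all genes) and 1, Irs1, lay wholly below them (1.3%). The median was -0.02, with -0.01 over all genes.

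**Figure D1:**
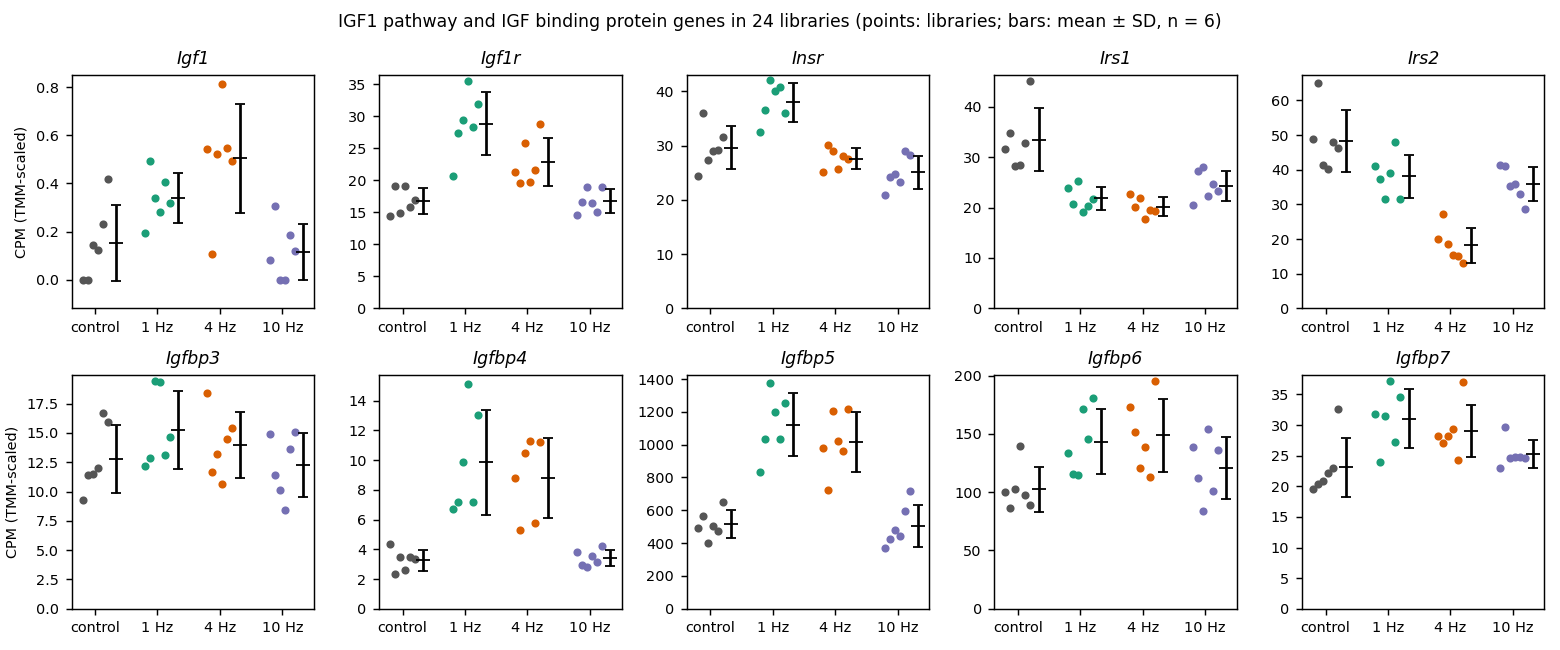
CPM (TMM-scaled, vertical axes, each panel with its own scale) of the 10 genes in the 24 libraries by condition. Points are libraries and bars are means ± SD (n = 6). Igfbp4 and Igfbp5 sit above all control libraries at 1 and 4 Hz. At 10 Hz Igfbp4 lies within the control range, and Igfbp5 spans 373 to 716 CPM against 401 to 652 in control. Irs2 sits lowest at 4 Hz, with 13.2 to 27.2 CPM.

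**Figure D2:**
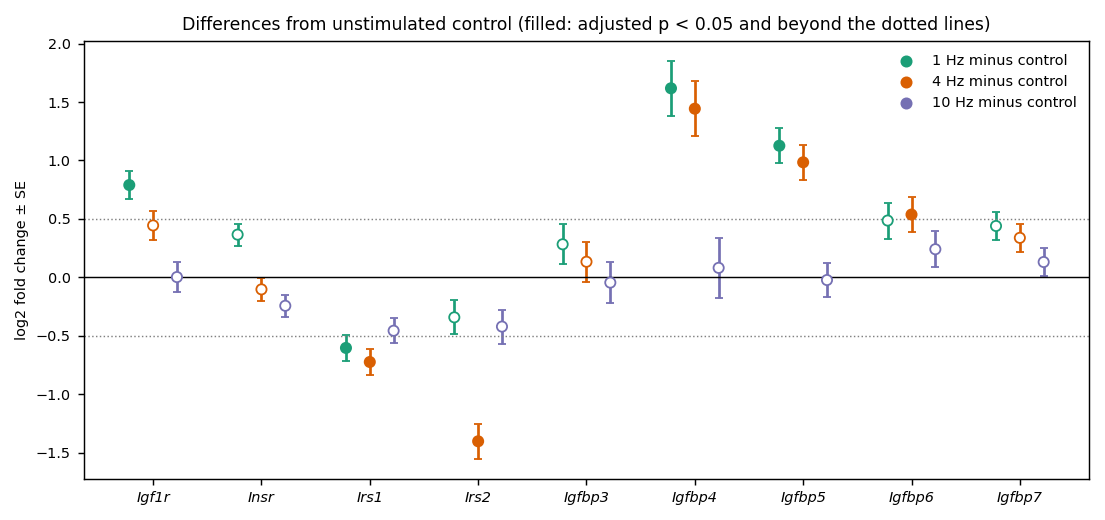
Log2 fold change from control ± SE for the 9 genes tested at 1, 4, and 10 Hz. Filled points passed an adjusted p of 0.05 and the dotted lines at 0.5 in either direction, and no 10 Hz point is filled.

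Igf1, the ligand gene (ENSMUSG00000020053, chr10:87693642-87772904, plus strand, 4 exons in the canonical transcript), was barely detected. It had 0 to 2 counts per control library, 1 to 5 at 1 Hz, 1 to 9 at 4 Hz, and 0 to 2 at 10 Hz. Only 6 of the 24 libraries were above a floor of 3 counts, which corresponded to 0.197 to 0.734 CPM. Summed over 6 libraries, Igf1 had 5 counts of 34.04 M in control, 16 of 48.98 M at 1 Hz, 27 of 54.74 M at 4 Hz, and 5 of 49.17 M at 10 Hz. The share at 4 Hz was 3.36 times that of control with an exact 95% interval of 1.28 to 11.2, which covers counting error only. With the low-count filter removed, edgeR gave a log2 fold change of 1.74 ± 0.69 (SE) between 4 Hz and control with an adjusted p of 0.0831, and of -2.14 ± 0.68 between 10 and 4 Hz with an adjusted p of 0.0365. At this depth, differences of Igf1 from control were not detectable at the adjusted threshold. The other ligand measured, Igf2, was far more abundant, with 182 ± 13.5 TPM in control, 183 ± 31.3 at 1 Hz, 177 ± 11.5 at 4 Hz, and 171 ± 20.7 at 10 Hz (SD, n = 6 each), and was not called in any comparison.

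Igf1r, the IGF1 receptor (ENSMUSG00000005533, chr7:67601518-67883416, plus strand, 21 exons), was highest at 1 Hz. The lowest, median, and highest CPM were 14.4, 16.4, and 19.1 in control, 20.6, 28.8, and 35.4 at 1 Hz, 19.5, 21.4, and 28.8 at 4 Hz, and 14.5, 16.5, and 19.0 at 10 Hz. In CPM, every 1 Hz and 4 Hz library was above every control and every 10 Hz library, and 1 and 4 Hz overlapped. In TPM all 4 conditions overlapped. Mean TPM was 3.60 in control, 4.87 at 1 Hz, 3.44 at 4 Hz, and 2.65 at 10 Hz, so the 4 Hz mean was not above control. The log2 fold change at 1 Hz was 0.79 ± 0.12 (SE, edgeR adjusted p = 3.69e-05). At 4 Hz it was 0.44 ± 0.12 (edgeR adjusted p = 0.00564), below the fold threshold, and at 10 Hz it was 0.00 ± 0.13 (edgeR adjusted p = 0.997). The difference of -0.35 ± 0.12 between 4 and 1 Hz did not pass (edgeR adjusted p = 0.0525). Igf1r was not called with the small RNA share in the fit, either at 1 Hz against control (0.56, edgeR adjusted p = 0.310) or at 10 Hz against 1 Hz (-0.59, 0.0875). In TPM the call at 1 Hz was lost, with a log2(TPM + 1) difference of 0.35 and a limma adjusted p of 0.296. Counts per TPM of Igf1r, which reflect the transcript length assigned by salmon, varied 2.41-fold between libraries, where the median gene varied 1.28-fold. Relative to the median over genes in each library, they averaged 3.48 in control, 4.18 at 1 Hz, 4.00 at 4 Hz, and 4.34 at 10 Hz. They were thus lowest on average in control. The exons of Igf1r overlap those of Pgpep1l on the opposite strand. The libraries were made with a directional kit, and the strand setting of the counting is not given in the sources used here.

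Insr, the insulin receptor (ENSMUSG00000005534, chr8:3172061-3329647, minus strand, 21 exons), separated 1 Hz from the other frequencies. Its CPM was 24.4 to 36.1 in control (median 29.1), 32.6 to 42.0 at 1 Hz (median 38.3), 25.0 to 30.0 at 4 Hz (median 27.8), and 20.9 to 28.9 at 10 Hz (median 24.5). All 1 Hz libraries were above all 4 and 10 Hz libraries, and 4 of 6 were above all control libraries. Insr was called lower at 10 Hz than at 1 Hz, by -0.61 ± 0.09 (SE, edgeR adjusted p = 2.69e-05). The differences from control were 0.37 ± 0.09 at 1 Hz (edgeR adjusted p = 0.00412), -0.10 ± 0.10 at 4 Hz (0.407), and -0.24 ± 0.10 at 10 Hz (0.14), none of which was called. Between 4 and 1 Hz the difference was -0.47 ± 0.09 (edgeR adjusted p = 0.00194), close to the fold threshold. The difference between 10 and 1 Hz with the small RNA share in the fit was -0.39 (edgeR adjusted p = 0.117) and was not called. The ratio of Igf1r to Insr in TPM was 0.708 ± 0.224 in control, 0.756 ± 0.321 at 1 Hz, 0.895 ± 0.257 at 4 Hz, and 0.642 ± 0.226 at 10 Hz (SD, n = 6 each). The same ratio in CPM, which is not per length, was 0.567 ± 0.0493, 0.758 ± 0.106, 0.830 ± 0.136, and 0.674 ± 0.0814. In TPM the 4 conditions overlapped and the 10 Hz mean was below that of control, where in CPM it was above, and neither ratio was tested.

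Irs1, the adaptor gene shared by both receptors (ENSMUSG00000055980, chr1:82210822-82269338, minus strand, 2 exons), was lower in all stimulated groups. Its lowest, median, and highest CPM were 28.2, 32.2, and 45.0 in control, 19.2, 21.2, and 25.2 at 1 Hz, 17.7, 19.9, and 22.6 at 4 Hz, and 20.4, 24, and 28.1 at 10 Hz. Every stimulated library lay below every control library. It fell at 1 Hz by 0.60 ± 0.11 on the log2 scale (SE, edgeR adjusted p = 0.000173) and at 4 Hz by 0.72 ± 0.11 (edgeR adjusted p = 1.41e-05). At 10 Hz the difference was -0.46 ± 0.11 (edgeR adjusted p = 0.0138), which passed the adjusted p and not the fold threshold. Without control library 3, control library 4, or 10 Hz library 3, it was -0.50 to -0.51 and passed both. The 3 stimulated groups did not differ from one another in Irs1 past the threshold, with differences of -0.12, 0.15, and 0.27 for 4 against 1 Hz, 10 against 1 Hz, and 10 against 4 Hz. Irs1 was not called with the small RNA share in the fit at 1 Hz (-0.48, edgeR adjusted p = 0.338) or 4 Hz (-0.60, 0.0696). At 10 Hz that fit gave -0.44 (edgeR adjusted p = 0.0206), which again passed the adjusted p and not the fold threshold.

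Irs2, the adaptor gene with a well-known acute regulation by nutrients and cAMP signals (ENSMUSG00000038894, chr8:11034681-11059499, minus strand, 2 exons), was low at 4 Hz. Its lowest, median, and highest CPM were 40.1, 47.2, and 64.9 in control, 31.6, 38.2, and 48.0 at 1 Hz, 13.2, 17.0, and 27.2 at 4 Hz, and 28.7, 35.6, and 41.5 at 10 Hz. Every 4 Hz library lay below every library of the 3 other conditions. The log2 fold change at 4 Hz was -1.40 ± 0.15 from control (SE, edgeR adjusted p = 2.95e-07), -1.06 ± 0.15 from 1 Hz (edgeR adjusted p = 7.33e-05), and 10 Hz was higher than 4 Hz by 0.98 ± 0.15 (edgeR adjusted p = 0.000122). Differences from control were -0.34 ± 0.15 at 1 Hz (edgeR adjusted p = 0.0674) and -0.42 ± 0.15 at 10 Hz (0.0867), neither past the threshold. Being called lower at 4 Hz than in all 3 other conditions was shared by 36 of the 13318 genes tested (0.27%). Adding the small RNA share to the fit left Irs2 called at 4 Hz against control (-1.10, edgeR adjusted p = 0.0137) and against 1 Hz (-1.07, 4.91e-05), and not called between 10 and 4 Hz (0.71, 0.447). Irs2 was the more abundant adaptor in control, at 11.4 ± 2.60 TPM against 5.40 ± 1.14 for Irs1, and its ratio to Irs1 in TPM averaged 2.14 in control, 2.59 at 1 Hz, 1.31 at 4 Hz, and 2.18 at 10 Hz (n = 6 each), a description with no test.

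Igfbp5, a secreted binding protein that myoblasts make in quantity during differentiation (ENSMUSG00000026185, chr1:72897091-72914043, minus strand, 4 exons, promoter shown above), was higher at 1 and 4 Hz than in control and at 10 Hz. The lowest, median, and highest CPM were 401, 497, and 652 in control, 834, 1118, and 1375 at 1 Hz, 722, 1001, and 1217 at 4 Hz, and 373, 462, and 716 at 10 Hz. Every 1 and 4 Hz library was above every control and every 10 Hz library. At 1 Hz Igfbp5 rose by 1.13 ± 0.15 on the log2 scale (SE), with an edgeR adjusted p of 7.24e-06, and at 4 Hz it rose by 0.98 ± 0.15 (edgeR adjusted p = 1.52e-05). It was lower at 10 Hz than at 1 Hz by -1.15 ± 0.15 (edgeR adjusted p = 3.68e-06) and than at 4 Hz by -1.01 ± 0.15 (9.72e-05). The difference between 10 Hz and control was -0.02 ± 0.15 (edgeR adjusted p = 0.954, 95% interval -0.33 to 0.28). With the small RNA share in the fit, Igfbp5 was not called at 1 Hz (0.61, edgeR adjusted p = 0.287), at 4 Hz (0.50, 0.195), or at 10 against 4 Hz (-0.62, 0.446), and stayed called at 10 against 1 Hz (-0.73, 0.0416).

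Igfbp4, a secreted binding protein with low abundance here (ENSMUSG00000017493, chr11:98932064-98945218, plus strand, 4 exons), had the largest fold changes of the 9 genes tested against control at 1 and 4 Hz. Its lowest, median, and highest CPM were 2.35, 3.42, and 4.35 in control, 6.75, 8.53, and 15.1 at 1 Hz, 5.31, 9.64, and 11.3 at 4 Hz, and 2.82, 3.34, and 4.25 at 10 Hz, from 14 to 145 counts per library. The 1 and 4 Hz libraries were all above the control and 10 Hz libraries. It rose at 1 Hz by 1.62 ± 0.24 (SE, edgeR adjusted p = 1.9e-05) and at 4 Hz by 1.44 ± 0.24 (edgeR adjusted p = 3.82e-05). It was lower at 10 Hz than at 1 Hz by -1.54 ± 0.23 (edgeR adjusted p = 1.52e-05) and than at 4 Hz by -1.36 ± 0.22 (0.000235). Against control, 10 Hz differed by 0.08 ± 0.25 (edgeR adjusted p = 0.904). After adding the small RNA share to the fit, Igfbp4 was not called at 1 Hz (1.27, edgeR adjusted p = 0.233), at 4 Hz (1.12, 0.109), at 10 against 1 Hz (-1.24, 0.0604), or at 10 against 4 Hz (-1.09, 0.447). Counts per TPM of Igfbp4 varied 3.32-fold between libraries, so its TPM rest on the assignment of reads to transcripts. Relative to the median over genes in each library, they averaged 1.30 in control, 0.946 at 1 Hz, 1.01 at 4 Hz, and 1.32 at 10 Hz. They were thus lower on average in the 2 conditions where Igfbp4 was called higher. Being called higher at 1 and 4 Hz than in control and lower at 10 Hz than at both held for 383 genes (2.88% of those tested), of which Igfbp4 and Igfbp5 were 2.

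Igfbp6, a binding protein with a known preference for IGF2 (ENSMUSG00000023046, chr15:102052697-102057953, plus strand, 4 exons), changed less. Its CPM was 86.0 to 139 in control (median 98.8), 115 to 181 at 1 Hz (median 139), 113 to 195 at 4 Hz (median 145), and 83.7 to 154 at 10 Hz (median 124). The control and stimulated libraries overlapped at every frequency. Its log2 fold change was 0.49 ± 0.15 at 1 Hz (edgeR adjusted p = 0.0157), just under the fold threshold, 0.54 ± 0.15 at 4 Hz (0.00705), just over it, and 0.24 ± 0.15 at 10 Hz (0.402). The call at 4 Hz was lost without 4 Hz library 1 (0.49) or library 6 (0.45). Scaling by the library total alone gave 0.44 at 4 Hz, and adding the small RNA share to the fit gave 0.38 (edgeR adjusted p = 0.464).

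Igfbp7, a binding protein of low IGF affinity (ENSMUSG00000036256, chr5:77493130-77555931, minus strand, 5 exons), was 19.5 to 32.6 CPM in control (median 21.5), 23.9 to 37.3 at 1 Hz (median 31.6), 24.3 to 37.0 at 4 Hz (median 28.2), and 22.9 to 29.7 at 10 Hz (median 24.8). All groups overlapped. The differences from control were 0.44 ± 0.12 at 1 Hz (SE, edgeR adjusted p = 0.00674), 0.34 ± 0.12 at 4 Hz (0.0289), and 0.13 ± 0.12 at 10 Hz (0.592), none of them called. Its exons overlap those of Polr2b on the opposite strand. Igfbp3, which carries most circulating IGF (ENSMUSG00000020427, chr11:7156086-7164179, minus strand, 5 exons), was 8.46 to 19.4 CPM in all 24 libraries, with medians of 11.8, 13.9, 13.9, and 12.5 in control, 1, 4, and 10 Hz. Its differences from control were 0.28 ± 0.17 (edgeR adjusted p = 0.204), 0.13 ± 0.17 (0.561), and -0.05 ± 0.17 (0.921). The 95% interval at 1 Hz ran from -0.07 to 0.63, which includes the fold threshold.

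In TPM, which sets genes side by side per length, the summed level of these 5 binding proteins was 330.1 ± 38.6 in control, 538 ± 64.1 at 1 Hz, 475 ± 57.9 at 4 Hz, and 334 ± 48.3 at 10 Hz (SD, n = 6). The sum ranged from 279 to 381 in control and from 461 to 607 at 1 Hz, with no overlap. Igfbp5 and Igfbp6 made up most of it. The share of Igfbp5 was 38.9 ± 5.41% in control, 49.9 ± 5.28% at 1 Hz, 47.6 ± 6.07% at 4 Hz, and 35.6 ± 7.37% at 10 Hz. The share of Igfbp6 was 47.3 ± 6.50% in control, 38.6 ± 4.92% at 1 Hz, 41.6 ± 5.94% at 4 Hz, and 50.9 ± 7.73% at 10 Hz. In control libraries Igfbp4 was 2.05 ± 1.28 TPM and Igf1r was 3.60 ± 1.68 TPM, so both are minor transcripts beside Igfbp5 at 129 ± 25.8 TPM. These shares and sums are a description, with no test.

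**Figure D3:**
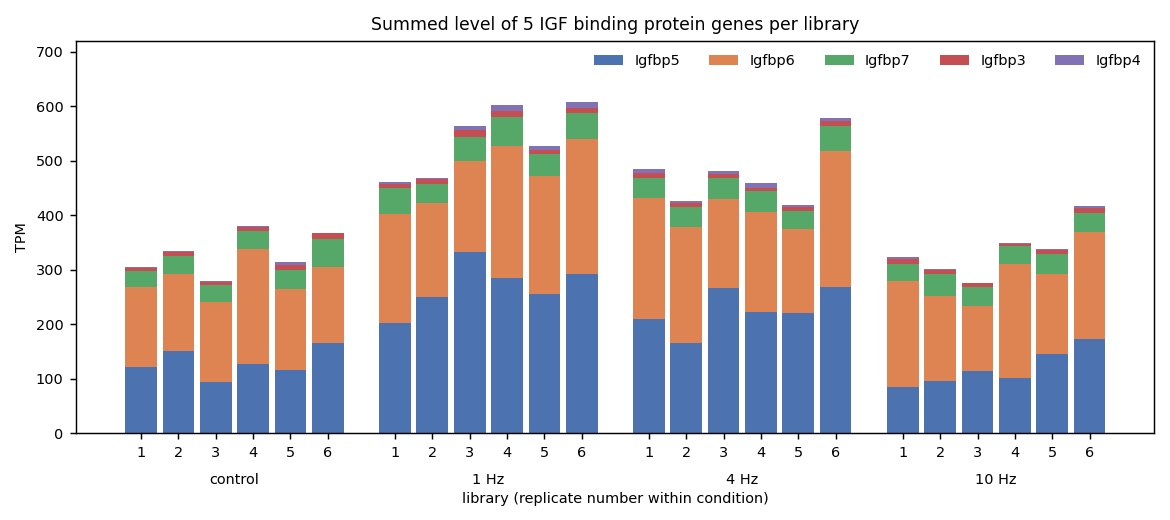
Summed TPM of Igfbp3, Igfbp4, Igfbp5, Igfbp6, and Igfbp7 in each of the 24 libraries, stacked by gene and ordered by condition and replicate number. The bars at 1 Hz reach 461 to 607 TPM and those of control 279 to 381 TPM, and Igfbp5 and Igfbp6 fill most of every bar.

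The stimulated groups were also compared with each other. Between 10 and 1 Hz, 4 of the 9 genes were called lower (Igf1r, Insr, Igfbp4, and Igfbp5), against 8.49% of all genes, and 0 were called higher, against 9.45%. By the adjusted p alone 5 passed (36.3% of all genes), and 4 lay wholly below 1 Hz (7.49%) and 0 wholly above it (5.67%). The median was -0.33, with 0.01 over all genes. Between 10 and 4 Hz, Irs2 was higher (5.32% of all genes called higher) and Igfbp4 and Igfbp5 were lower (5.64% called lower). By the adjusted p alone 4 passed (22.8%), and 1 lay wholly above 4 Hz (2.67%) and 3 wholly below it (3.54%), with a median of -0.21 and 0.01 over all genes. Between 4 and 1 Hz, only Irs2 was called, in the lower direction (1.4% of all genes), and 0 were called higher (1.59%). By the adjusted p alone Irs2 and Insr passed (12.3%), and both lay wholly below 1 Hz (3.33%) with 0 wholly above it (2.37%), and the median was -0.15 with a median near 0 over all genes.

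Fewer calls against control were made at 1 and 4 Hz in a fit that included the small RNA share. With its log2 value as a covariate, edgeR called 0 of the 9 genes at 1 Hz (5 at an unadjusted p below 0.05, and 0 with limma on log2 CPM), 1 at 4 Hz (Irs2), and 0 at 10 Hz (3 at an unadjusted p below 0.05, and 0 with limma). The called differences were smaller with the covariate, except that of Irs2 between 4 and 1 Hz (-1.07 in place of -1.06). At 4 Hz against control, Igfbp4 was 1.12 in place of 1.44 and Igfbp5 was 0.50 in place of 0.98, and both calls were lost. The share was higher in each control library than in any 1 or 4 Hz library, which limits how far this fit can separate it from stimulation. A lost call there does not show that the share accounts for the difference. Standard errors of this fit are not given here. Some differences that were not called were larger, among them Igfbp7 at 1 Hz (0.54 in place of 0.44) and 4 Hz (0.43 in place of 0.34) and Insr at 4 Hz (-0.34 in place of -0.10). Among the 17 calls over all comparisons, 3 stayed called with the covariate (Irs2 at 4 Hz against control and against 1 Hz, and Igfbp5 between 10 and 1 Hz), and all 17 kept their direction. Within the 10 Hz condition, the small RNA share was 274, 178, 112, 98.8, 67.3, and 38.5 CPM in libraries 2, 1, 3, 4, 5, and 6, where Igfbp5 stood at 426, 373, 482, 443, 597, and 716 CPM. In the same order, Irs2 stood at 41.2, 41.5, 35.5, 35.8, 33.1, and 28.7 CPM. The 2 libraries with the lowest share had the highest Igfbp5 and the lowest Irs2, a description of 6 points.

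**Figure D4:**
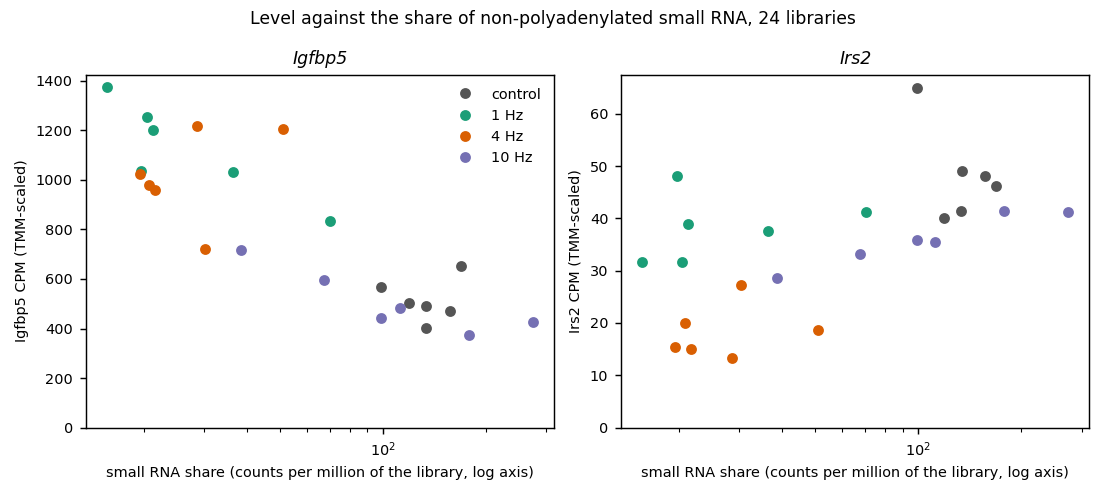
CPM (TMM-scaled) of Igfbp5 and Irs2 against the share of non-polyadenylated small RNA (CPM of the library total, log axis), 1 point per library. Control libraries lie at 98.8 CPM and above on the horizontal axis and 1 and 4 Hz libraries at or below 70.2, with 10 Hz spread from 38.5 to 274.

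Muscle markers also moved with the conditions. The summed level of 7 myofiber genes was 8756 ± 719.7 TPM in control, 13479 ± 1605 at 1 Hz, 14121 ± 2095 at 4 Hz, and 10211 ± 1664 at 10 Hz (SD, n = 6). Of the 7, Acta1, Myh3, Mylpf, and Tnnt3 were called higher at 1 and 4 Hz, and Myh3 and Mylpf at 10 Hz. Myoblast marker sums (Pax7 and Myf5) were 16.4 ± 5.37, 14.2 ± 2.60, 10.1 ± 2.02, and 17.2 ± 2.85 TPM in control, 1, 4, and 10 Hz. Pax7 was called higher at 1 Hz (0.99) and 4 Hz (1.04), and Myf5 was called lower at 4 Hz (-0.61). Proliferation marker sums (Mki67, Top2a, and Ccnb1) were 7.43 ± 2.18, 7.64 ± 2.39, 8.42 ± 3.99, and 6.61 ± 1.73 TPM, with Mki67 (1.28) and Top2a (0.69) called higher at 4 Hz. Fibroblast marker sums were 37.3 ± 10.8, 36.2 ± 6.20, 24.5 ± 2.30, and 31.4 ± 4.13 TPM, and Dcn was called lower at 4 Hz (-0.59). Macrophage marker sums were at most 1.26 TPM in any library, and Csf1r was called lower at 4 Hz (-1.33). None of the myoblast, proliferation, fibroblast, or macrophage markers was called at 10 Hz against control. The part of these cell markers in the differences of Igfbp4, Igfbp5, Igf1r, and Irs1 was not tested.

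The rest of the pathway was read from a list of 64 genes, of which 56 passed the filter; the insulin genes Ins1 and Ins2, Igfbp1, Igfals, Igfbpl1, Stc1, Irs3, and Irs4 did not. At 1 Hz 10 were called higher (9.34% of all genes) and 0 lower (8.99%), 29 passed the adjusted p alone (35.4% of all genes), and the median was 0.19 with -0.01 over all genes. At 4 Hz 4 of the 56 were higher and 2 lower, shares below the 10.5% and 9.61% of all genes, with 18 by the adjusted p alone, also below the 39.4% of all genes, and a median of 0.09. At 10 Hz edgeR called 0 (1.24% of all genes were called higher and 0.623% lower), with 9 at an unadjusted p below 0.05, and DESeq2 and limma called 0. After adding the small RNA share to the model, edgeR called 0 of the 56 at 1 Hz (6 at an unadjusted p below 0.05) and 0 at 4 Hz (6 at an unadjusted p below 0.05), and limma also called 0 of them.

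Among the 4 tested genes that act on binding proteins, 3 were called higher at 1 Hz, where 9.34% of all genes were. None of the 3 was called with the small RNA share in the fit. Htra1, a secreted serine protease known to cut IGF binding proteins, rose from 101 ± 8.77 CPM in control to 159 ± 31.0 at 1 Hz (SD, n = 6), or by 0.67 ± 0.12 on the log2 scale (SE, edgeR adjusted p = 0.000185). It was lower at 10 Hz than at 1 Hz by -0.83 ± 0.12 and than at 4 Hz by -0.63 ± 0.12. The others, chosen after their values were seen, were Pappa2, a metalloprotease that cleaves IGFBP5 (1.27 ± 0.26), and Stc2, an inhibitor of pappalysins (0.74 ± 0.19), each low in CPM. At 4 Hz Pappa2 and Stc2 were again called higher, by 1.15 and 0.58. Igfbp2, the binding protein of the list that passed the filter, rose at 1 Hz from 18.4 ± 3.05 to 29.2 ± 8.53 CPM, by 0.66 ± 0.17 (edgeR adjusted p = 0.00321).

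Of the PI3K group, Pik3ip1, a membrane inhibitor of PI3K, rose by 0.75 ± 0.18 (SE) at 1 Hz (edgeR adjusted p of 0.0022) and at 4 Hz by 0.67 ± 0.18 (0.00466), from 16.8 ± 5.14 CPM in control to 28.3 ± 4.87 at 1 Hz and 26.8 ± 5.14 at 4 Hz. Pik3ca, the catalytic subunit p110 alpha, fell at 4 Hz by 0.51 ± 0.10 (edgeR adjusted p = 0.000252), from 77.3 ± 9.60 to 54.0 ± 6.29 CPM. Phlpp2, a phosphatase that removes phosphate from AKT, fell at 4 Hz by 0.60 ± 0.13 (0.00079), and it was lower at 4 Hz than at 1 Hz by -0.57 ± 0.13. Hras, a small GTPase upstream of the MAPK cascade, rose at 4 Hz by 0.53 ± 0.11 (0.000495), from 51.2 ± 5.85 to 74.1 ± 11.4 CPM. The 11 genes of AKT and its brakes had 1 call at 1 Hz (Phlpp1, higher, chosen after its values were seen) and 1 at 4 Hz (Phlpp2, lower). The 12 genes of the mTOR complexes had 2 calls at 1 Hz (Rptor and Eif4ebp1, both higher and chosen after their values were seen) and 0 at 4 Hz. Of all genes, 9.34% were called higher at 1 Hz, and 10.5% were called higher and 9.61% lower at 4 Hz. By the adjusted p alone, 5 of the 12 passed at 4 Hz, where 39.4% of all genes did.

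Between 10 and 1 Hz the pathway list had 1 call higher and 9 lower, against 9.45% and 8.49% of all genes, with 22 by the adjusted p alone (36.3% of all genes) and a median of -0.18 against 0.01 over all genes. With the small RNA share in the fit, edgeR called 0 of the 56 here (8 at an unadjusted p below 0.05), and limma on log2 CPM called 1. Of the 4 FoxO genes, transcription factors that AKT holds in the cytoplasm, 3 were called lower at 10 Hz than at 1 Hz, namely Foxo1, Foxo3, and Foxo6, by -0.58, -0.74, and -0.72, and Foxo4 was not called, where 8.49% of all genes were called lower. The gene called higher was Pik3r3, a regulatory subunit of PI3K, by 0.71 ± 0.14. Between 10 and 4 Hz, 3 genes were called, all lower (Htra1, Pik3ip1, and Foxo1), where 5.64% of all genes were called lower and 5.32% higher. Between 4 and 1 Hz only Phlpp2 was called, in the lower direction, where 1.4% of all genes were called lower and 1.59% higher. The FoxO genes and Pik3r3 were named after their values were seen.

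**Figure D5:**
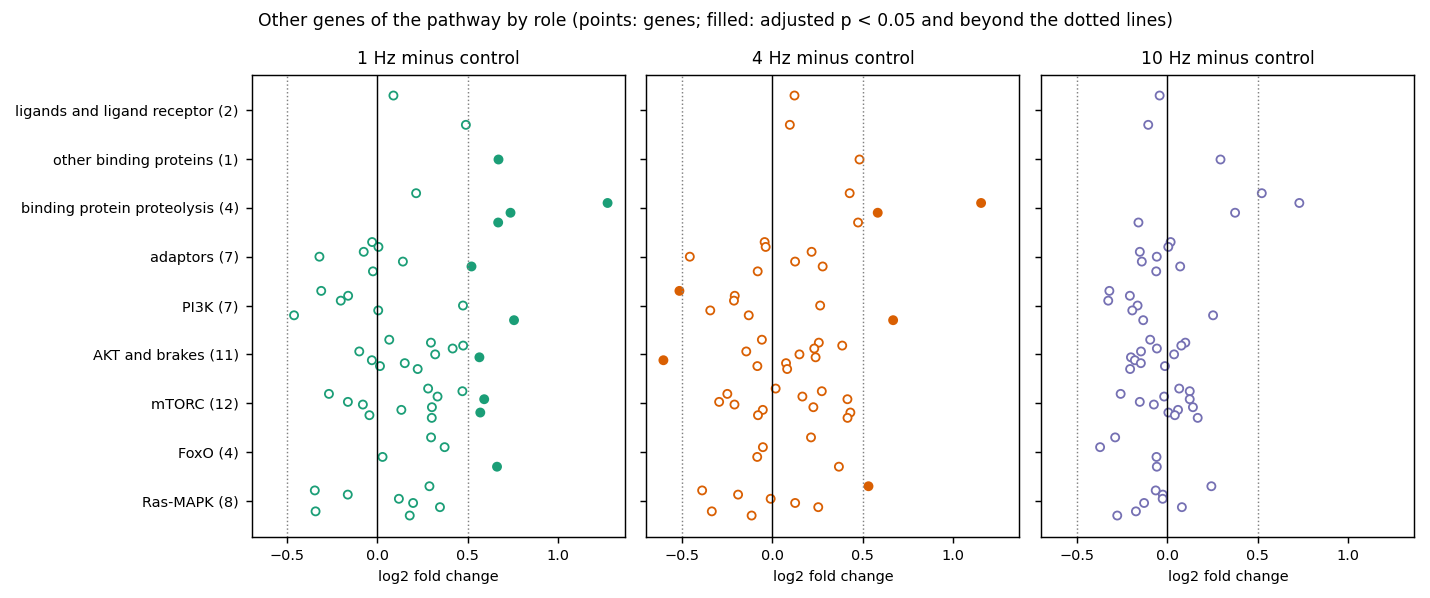
Log2 fold changes from control of the 56 other pathway genes tested, in rows by role (number of genes in brackets) and in panels by frequency. Filled points passed both thresholds. At 1 Hz 10 points are filled, at 4 Hz 6, and at 10 Hz none.

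The gene with the most similar profile to each member over the 24 libraries was named where Pearson's r of log2 CPM reached 0.85. For Igfbp5 it was Col12a1 (r = 0.97, and 0.91 after removing condition means), for Igf1r Col18a1 (0.95 and 0.85), for Igfbp7 Col4a2 (0.89 and 0.82), all of them collagen genes. For Igfbp4 it was Mthfd2, a mitochondrial folate enzyme (0.95 and 0.77), for Igfbp6 Cope, a coatomer subunit (0.95 and 0.94), for Insr Nedd4, a ubiquitin ligase (0.90 and 0.77), and for Irs2 Prdm2 (0.91 and 0.68). The points share library preparation and depth, and these values are descriptions over 24 libraries.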

How the data were processed

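RNA of 24 tissues was measured, 6 per condition, with groups and replicate numbers read from the titles. The authors made paired-end libraries after poly(A) selection (ribodepletion replaced it for samples of low input, left unnamed in the labels) and quantified genes with salmon against GRCm39, per the labels. The methods name a directional library kit and an Ensembl annotation, whose release is not given in the sources used here, nor is the strand setting of the counting. The values deposited by the authors were salmon estimated counts per gene (not normalized, with fractional values for 6.62% to 10.6% of entries per library) and a separate table of TPM, each with 56941 genes. All members and lists were chosen with earlier results of these data known.

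Estimated counts were rounded. Genes were kept with filterByExpr by condition (13318 genes, 99.8% of counts), scaled by TMM, and tested with glmQLFit and glmQLFTest (edgeR 4.0.16, R 4.3.3) in 1 fit of 24 libraries with condition as the only factor (common dispersion 0.0233). The 6 comparisons were contrasts with Benjamini-Hochberg adjustment over 13318 genes. Called means an adjusted p below 0.05 and a log2 fold change beyond 0.5. No 2 replicates of a condition were copies (lowest chi-square per gene 3.25 over 60 pairs). Deviations from the condition means had a median r of 0.0173 over 36 pairs of same-numbered libraries (10 of them over 0.1, highest 0.362). For pairs of different numbers the median was -0.013, so no pairing by number was detected. The p-values measure spread between culture wells of 1 engineered line. On simulated counts for 1 Hz against control (13124 genes, 200 changed), edgeR recovered 85.5% of the changed genes and 0.581% of its calls were false. The planted changes were 1 log2 unit or larger, and the small RNA share was not modelled. Recovery of smaller changes, such as many of those reported here, was not simulated.

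Alternatives were DESeq2 1.42.0, limma 3.58.1 on log2(TPM + 1) and log2(TPM + 0.1), other scalings and filters, the compared libraries only, the adjusted p alone, small RNA without poly(A) tails (log2 share, 29 of 32 listed genes in the table) as covariate, the replicate number as a block, and leaving out each library. limma on log2 CPM with that covariate was added after seeing the data. Of the other pathway genes, the text names by rule up to 3 called higher and 3 called lower against control with a mean of at least 10 CPM and the largest log2 fold change, and for each member the gene with the most similar profile (that of Irs1 is not reported here). Promoter windows were read from GRCm39 with GENCODE M39 starts.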

Additional observations from a re-analysis of the deposited data

Results flagged for a closer look

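In 4 of 36 sets of 6 libraries (9 genes in 4 conditions), 1 library stood apart from the rest, with a gap to the next library above Dixon's 95% critical share of the range. Chance alone flags about 1 in 20 such groups. Irs2 was 64.9 CPM in control library 2, with 49.01 CPM as the next highest. Igfbp6 was 139.2 CPM in control library 4, with 102.4 CPM next. Igfbp7 was 32.64 CPM in control library 6, with 23 CPM next, and 29.67 CPM in 10 Hz library 2, with 24.86 CPM next. Without control library 4, Igfbp6 was 0.60 higher at 1 Hz than in control (log2 scale) and was called, and without control library 6, Igfbp7 was 0.56 higher at 1 Hz and was called.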

How the results depend on the processing

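Of the 17 called differences of single genes, 14 kept their call and direction in every alternative other than the small RNA covariate. The exceptions were Igf1r between 1 Hz and control on the TPM scales (limma adjusted p 0.296 to 0.446), Igf1r between 10 and 1 Hz on log2(TPM + 1) without a filter (0.101), and Igfbp6 at 4 Hz. Depth limits Igf1, at 0 to 9 counts per library, and Igfbp4, at 14 to 145.

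Counts of called genes moved as follows. For 1 Hz against control, the pathway list gave 5 (log2(TPM + 1) and log2(TPM + 0.1)) or 6 (no filter) in place of 10. For 4 against 1 Hz, the same 3 settings gave 2 members in place of 1, and 0, 2, and 0 pathway genes in place of 1. For 10 Hz against control, log2(TPM + 0.1) gave 1 member. The adjusted p alone gave 7 members and 29 pathway genes at 1 Hz, 18 pathway genes at 4 Hz, 1 member at 10 Hz, 2 members and 5 pathway genes for 4 against 1 Hz, and 22 and 12 pathway genes for 10 against 1 and 4 Hz. The small RNA covariate gave 0 members and 0 pathway genes at 1 Hz, 1 and 0 at 4 Hz, 1 and 0 for 10 against 1 Hz, and 0 and 0 for 10 against 4 Hz, and the cause was not tested. The edgeR counts at an unadjusted p below 0.05 were then 5 and 6, 6 and 6, 5 and 8, and 3 and 1, and limma with the covariate called the same numbers but for 1 pathway gene between 10 and 1 Hz.

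Leaving out 1 library gave 4 to 5 members at 1 Hz, 4 to 5 at 4 Hz, 0 to 1 at 10 Hz (Irs1, without control library 3, control library 4, or 10 Hz library 3), 1 to 2 for 4 against 1 Hz (Insr added without 1 Hz library 1), 4 for 10 against 1 Hz, and 3 for 10 against 4 Hz. Pathway counts were 7 to 14, 4 to 8, 0, 1, 9 to 12, and 2 to 5 (5 without 10 Hz library 6).

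Differences that changed sign were called in neither fit. Igf1r at 10 Hz was -0.034 (library total), -0.32 (log2(TPM + 1), with and without filter), -0.42 (log2(TPM + 0.1)), and -0.029 (covariate), and -0.039 to 0.053 without 1 library. Igfbp3 at 4 Hz was -0.042, -0.046, -0.042 (the 3 TPM settings), and -0.13 (covariate), and Igfbp4 at 10 Hz was -0.096, -0.13, and -0.096. Igfbp6 for 4 against 1 Hz was -0.078 on the TPM scales and -0.035 to 0.13 without 1 library. For 10 against 4 Hz, Insr was 0.030 or 0.033 on the TPM scales and 0.063 with the covariate, and Igfbp3 was 0.043 with the covariate. At 10 Hz against control, leaving out 1 library gave -0.15 to 0.056 for Igfbp5 and -0.12 to 0.040 for Igfbp3.

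The replicate number as a block changed no call of a member. It gave 4, 5, 0, 1, 4, and 3 members and 9, 6, 0, 1, 10, and 2 pathway genes in the 6 comparisons. No pairing by number was detected, and 5 of 24 libraries correlated best with their own number.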
